A study of Bos taurus with 30 samples.

Results

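The miR-34 and miR-449 microRNAs (miRNAs) were followed in Holstein-Friesian bull calves, in the anterior lobe of the pituitary, which makes growth hormone, gonadotrophins and other hormones. The members were the rows of the deposited miRNA table named bta-miR-34 or bta-miR-449 with any letter, which gave 7 of 1030 rows. They were bta-miR-34a, bta-miR-34b, bta-miR-34c, bta-miR-449a, bta-miR-449b, bta-miR-449c and bta-miR-449d. The family was selected on the measured difference of miR-34a between the diets, so its diet values are given below as a description, without a test. All 7 members were above 0 in at least 1 library, and 3 of them (miR-34a, miR-34c and miR-449a) passed the filter on low counts that left 419 miRNAs in the fits.

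Small RNA was sequenced from 30 calves, 1 library per calf, 15 on a high (HI) and 15 on a moderate (MOD) plane of nutrition from 2 to 12 weeks of age, when the tissue was taken. Milk replacer was fed at 1.5 kg (10 L) per day to HI and at 0.5 kg (4 L) per day to MOD calves. Concentrate was unlimited in HI and held to 0.5 kg per day in MOD. Both groups had water and hay, and the calves came from several farms and sires, which the labels do not give. The paper states that age, bodyweight, sire and farm were used to block the calves before diets were assigned. Those blocks are not in the labels either, so they could not be entered in the fits. Calf numbers below only name libraries and pair no calves between the diets. Values are read counts scaled to 1e+06 reads (CPM) and by TMM (trimmed mean of M-values) factors. The libraries held 6650492 to 11086524 reads on miRNAs (HI) and 7685030 to 9916490 (MOD). A member with no read in a library may therefore lie at up to 0.266 to 0.419 CPM there, the value of 3 reads. The pituitary endocrine miRNAs miR-375 and miR-7 together lay at 119200 to 212000 CPM in HI and 134500 to 209400 CPM in MOD libraries, and the liver miRNA miR-122 did not exceed 0.209 CPM. In such bulk tissue, fewer cells of a type and less RNA per cell cannot be told apart.

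The miR-34 genes are direct transcriptional targets of p53, the tumour suppressor that is activated by DNA damage, and their products repress genes of the cell cycle and of survival. miR-34b and miR-34c are cut from one primary transcript, whereas miR-449a, miR-449b and miR-449c lie in an intron of CDC20B, next to regulators of multiciliated cell formation. The mature miRNAs of both groups are close in seed sequence. miR-34b, miR-34c and miR-449 are best known from multiciliated epithelia and from the male germ line, and ciliated epithelium is known from the lining of Rathke's cleft, the remnant between the pituitary lobes. The share of such cells was not measured here.

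All 7 members matched a gene in RefSeq's table for the ARS-UCD2.0 assembly, which is not the build of the deposited values. MIR34A lay within the span of GPR157, between SPSB1 and LOC107131287. MIR34B and MIR34C lay together within the overlapping spans of BTG4 and HOATZ, between POU2AF1 and LAYN. MIR449A, MIR449B and MIR449C lay together within CDC20B, the gene of a cell-division-cycle protein homologue, with MCIDAS, a regulator of the multiciliated cell programme, on one side and GPX8 on the other. MIR449D lay apart from these, within NAV2. The members were therefore described as 3 expressed loci (miR-34a, miR-34b with miR-34c, and miR-449a with miR-449b and miR-449c), with miR-449d on its own. Mature sequences were not used here.

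miR-34a, the member most often tied to p53, was the most abundant. It accounted for 7298 of the 11357 reads on the family in the 30 libraries, 64.3% of them, and ranked 235 by mean level among the 419 tested miRNAs. In HI calves its lowest, median and highest levels were 20.48, 31.7 and 56.8 CPM, from 157 to 506 reads. In MOD calves they were 14.1, 22.1 and 30.8 CPM, from 108 to 264 reads. The ranges overlapped, but 10 of the 15 HI calves lay above the highest MOD calf and 5 of the 15 MOD calves lay below the lowest HI calf. The mean was 32.8 ± 8.82 CPM (SD, n = 15) in HI and 22.8 ± 4.84 CPM (SD, n = 15) in MOD, a difference of 0.49 (SE 0.12) on the log2(CPM + 1) scale, or 1.403-fold. This is the difference that led to the choice of the family.

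The other 2 tested members were much lower and far more uneven. miR-34c, made from the same transcript as miR-34b, had a lowest, median and highest level of 1.46, 5.68 and 28.8 CPM in HI calves (13 to 276 reads). The corresponding levels in MOD calves were 1.89, 3.71 and 42.6 CPM (15 to 333 reads). The highest MOD value came from MOD calf 13, and the next highest MOD calf was at 15.5 CPM. The HI and MOD means were 9.56 ± 8.09 and 7.72 ± 10.4 CPM (SD, n = 15 each), and the difference of 0.38 (SE 0.40) on the log2(CPM + 1) scale was smaller than its standard error. Without MOD calf 13 it was 0.58, and without HI calf 15, the highest HI calf, it was 0.24.

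miR-449a, the main product of the CDC20B locus, ran from 0.665 through a median of 6.26 to 12.2 CPM in HI calves (6 to 109 reads). In MOD calves it ran from 0.913 through 5.13 to 19.8 CPM, the lowest from 7 reads. The diets overlapped almost completely, with means of 5.17 ± 3.25 and 5.27 ± 4.62 CPM (SD, n = 15 each) and a log2(CPM + 1) difference of 0.02 (SE 0.33). The sign of that difference turned with the scaling, to -0.06 with upper quartile factors, and it was 0.16 without MOD calf 13 and -0.09 without MOD calf 3.

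**Figure D1:**
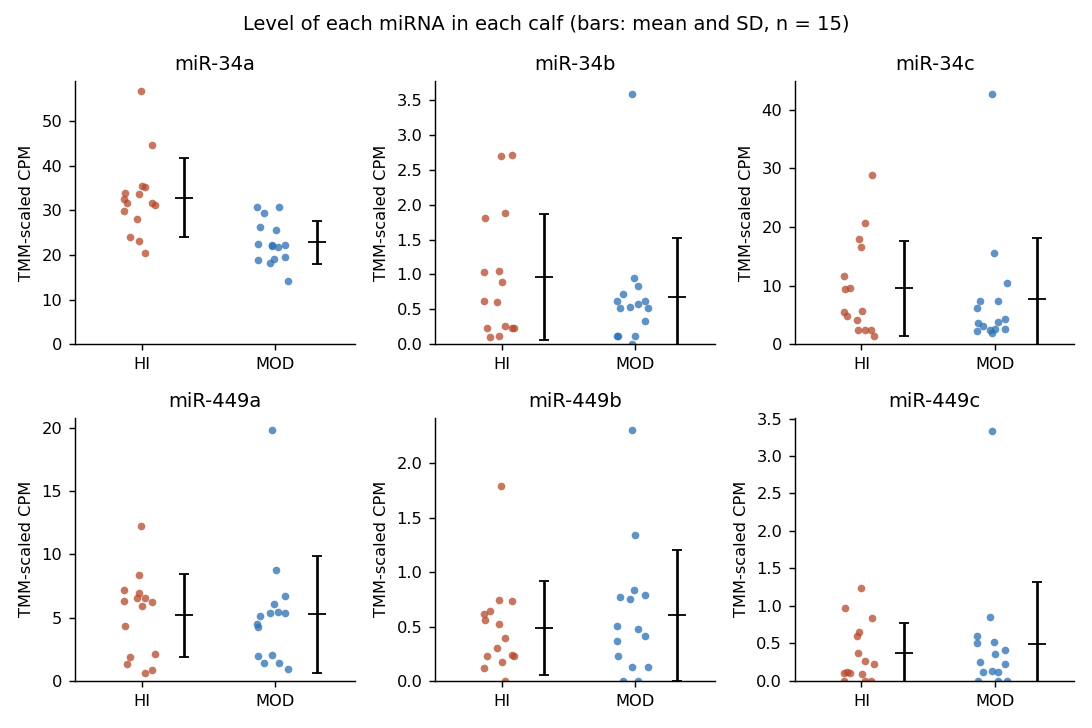
TMM-scaled CPM (y axis) of the 6 members with more than a few reads in each HI and MOD calf (points), with the mean and SD of each diet (bars, cut off at 0). The ranges of the diets overlap for every member. For miR-34a 10 of 15 HI calves lie above the highest MOD calf, whereas for the other members MOD calf 13 is the highest point.

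The remaining members were near the detection limit. miR-34b was above 0 in 29 libraries but had more than 3 reads in only 19. It ran from 0.107 through 0.618 to 2.71 CPM in HI calves and from 0 through 0.535 to 3.58 CPM in MOD calves, and the log2(CPM + 1) difference was 0.21 (SE 0.21). miR-449b had 140 reads in 27 libraries. Its HI mean was 0.485 ± 0.431 CPM and its MOD mean 0.602 ± 0.598 CPM (SD, n = 15 each), and the log2(CPM + 1) difference was -0.08 (SE 0.15). miR-449c had 110 reads in 24 libraries, with an HI mean of 0.371 ± 0.396 CPM, a MOD mean of 0.496 ± 0.823 CPM and a log2(CPM + 1) difference of -0.06 (SE 0.17). miR-449d had 3 reads in all, 1 in each of HI calf 7, MOD calf 4 and MOD calf 6, which is under the detection limit in every library. MOD calf 13 weighed on these differences as well, which without it were 0.32 (miR-34b), 0.0025 (miR-449b) and 0.06 (miR-449c). With a pseudocount of 0.1 the miR-34b difference was 0.44 (SE 0.46).

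In order of mean level the family ran miR-34a, miR-34c, miR-449a, miR-34b, miR-449b, miR-449c and miR-449d. miR-34a was above miR-34c in 29 of 30 calves, the exception being MOD calf 13. miR-34c and miR-449a were not set apart, since miR-34c was the higher in 18 calves and miR-449a in 12. miR-449a was above miR-34b in 29 calves, the exception being HI calf 14. Among the rare members the order was not stable, with miR-34b above miR-449b in 16 calves, equal to it in 4 and below it in 10, and miR-449b above miR-449c in 16 and below it in 8.

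Across the 419 miRNAs tested between the diets (limma), 15 were called at a false discovery rate (FDR) below 0.1, which is 3.58% of those tested, 8 higher and 7 lower in HI. Of these 15, 2 also had a fold change above 1.5. Because the diet contrast chose the family, no member is counted against that share. By absolute log2 difference miR-34a ranked 6 of the 419, and the median log2 difference over all tested miRNAs was 0.02. The 7 members summed to 49.3 ± 17.4 CPM per HI calf and 37.6 ± 16.7 CPM per MOD calf (SD, n = 15 each), a log2(CPM + 1) difference of 0.40 (SE 0.16), most of it carried by miR-34a.

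The diet differences were also written out in subsets of the calves and under other models. For miR-34a these values come from the same calves that led to its choice, and they describe the difference without adding support for it. In earlier results of these data the 9 libraries with the highest calf label numbers stood apart from the other 21, and the boundary between them was set on the values of another miRNA in these same libraries. What the numbers stand for is not given in the sources used here. Of the 9, 5 were HI and 4 MOD, and of the 21, 10 were HI and 11 MOD. The log2(CPM + 1) difference of miR-34a between HI and MOD was 0.42 (SE 0.16) within the 21 and 0.63 (SE 0.14) within the 9. For miR-34c it was 0.25 (SE 0.47) and 0.63 (SE 0.85), and for miR-449a -0.03 (SE 0.43) and 0.09 (SE 0.57). With the second digit of the label numbers, which took 4 values and cut across the 9 and the 21, as a block, the miR-34a difference was 0.46. Leaving out 1 calf at a time gave 0.43 (without HI calf 7) to 0.53 (without HI calf 4), and other scalings, pseudocounts and covariates gave 0.39 to 0.55.

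**Figure D2:**
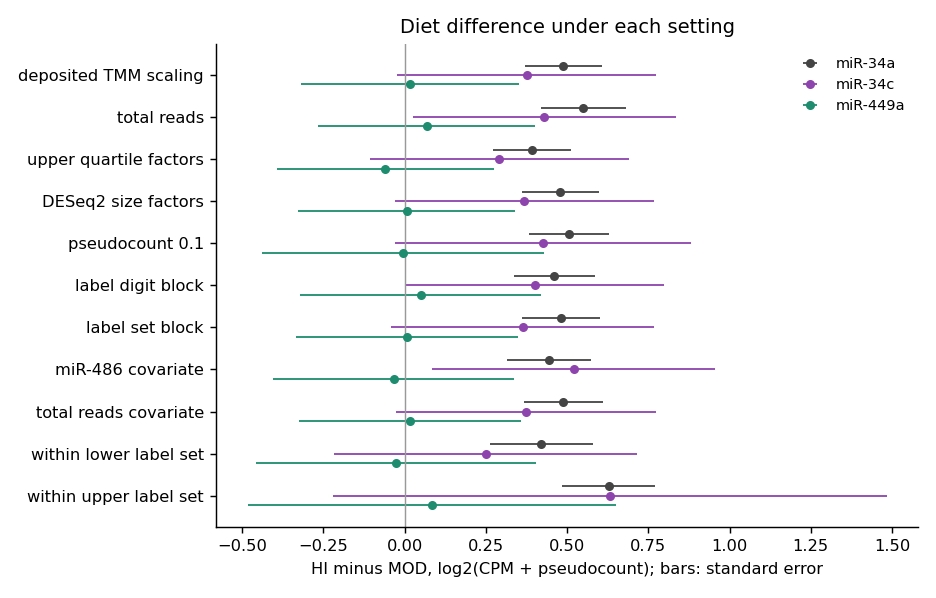
HI minus MOD difference (x axis, log2(CPM + pseudocount), with SE bars) of miR-34a, miR-34c and miR-449a under each scaling, pseudocount, block and covariate and within the lower (21) and upper (9) label sets. miR-34a lies between 0.39 and 0.63 throughout, whereas the bars of miR-449a cross 0 in every setting.

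Marker miRNAs of other cells were read beside this difference. Of the red blood cell miRNAs, miR-451 averaged 159 ± 87.2 CPM over HI and 101.6 ± 34.8 CPM over MOD calves (SD, n = 15 for both), with a log2 difference of 0.55, and miR-144 differed by 0.46. miR-486, the most abundant of the 3, differed the other way, by -0.27, and none of the 3 was called (limma, FDR 0.115 to 0.274). The paper, with another test (edgeR), did call miR-451 and miR-144 higher in HI calves, at FDR below 0.1 and fold change above 1.5. The summed level of the 3 ran from 10580 to 24490 CPM in HI and from 15560 to 27420 CPM in MOD calves. With miR-486 as a covariate the miR-34a difference was 0.44 (SE 0.13). miR-205, a miRNA of stratified epithelium and the only row of its list, was called lower in HI (limma, FDR below 0.1). The paper had also called miR-205 lower in HI calves with edgeR. Its log2 difference here was -0.67, with a range of 113 to 402 CPM over the HI calves and up to 749 CPM over the MOD calves. The MOD mean was 373 CPM against 235 CPM in HI. All 7 stromal rows had log2 differences above 0, from 0.04 to 0.28 with a median of 0.17. miR-199a-3p and miR-199c had the same HI mean (522.7 CPM) and log2 difference (0.28), so these 2 rows are not separate markers. The summed level of the 7 rows ran from 32610 to 184400 CPM in HI and from 33720 to 76760 CPM in MOD calves. All 5 white blood cell miRNAs were likewise above 0, from 0.06 to 0.22 with a median of 0.11, and summed to 471 to 803 CPM in HI and 450.6 to 898 CPM in MOD calves. None of these 12 rows was called, nor was any tested member of the lists for pituitary endocrine cells, the epithelial miR-200 family, endothelium, neural cells and striated muscle. Whether the cells behind these markers had a part in the miR-34a values was not tested.

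The comparison of the 9 libraries with the 21 others had no part in choosing the family and could be tested, although the share of all miRNAs called in it depends on a boundary set on these data. With diet in the model, 109 of the 419 miRNAs were called at FDR below 0.1 (limma), 26.0% of those tested, and 0 of the 3 tested members were among them. All 3 members also stayed uncalled with edgeR's quasi-likelihood test, and none had an unadjusted p below 0.05 in limma. miR-34a was at 29.6 ± 8.23 CPM in the 9 (SD) and 27.1 ± 8.87 CPM in the 21, a log2(CPM + 1) difference of 0.10 (SE 0.13, limma FDR 0.619). For miR-34c, at 9.89 ± 9.57 and 8.10 ± 9.19 CPM, the difference was 0.18 (SE 0.42, limma FDR 0.806). For miR-449a, at 5.16 ± 2.38 and 5.25 ± 4.49 CPM, it was 0.13 (SE 0.35, limma FDR 0.835). The standard errors of miR-34c and miR-449a leave room for sizeable differences in either direction.

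Variation between calves on the same diet set the members apart from each other. The biological coefficient of variation, which is the spread of a miRNA between calves beyond counting error as edgeR estimates it, was 0.825 for miR-34c and 0.703 for miR-449a. These values ranked 5 and 10 of the 419 tested miRNAs, against a median of 0.179. miR-34a, at 0.233, ranked 118. From the lowest to the highest calf miR-34a spanned 4.03-fold, miR-34c 29.1-fold and miR-449a 29.8-fold.

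**Figure D3:**
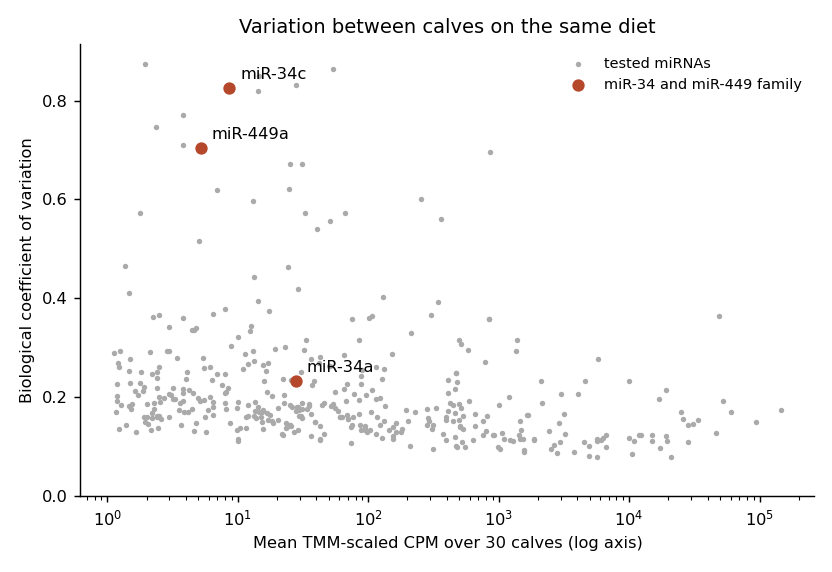
Biological coefficient of variation between calves on the same diet (y axis) against mean TMM-scaled CPM (x axis, log) for the 419 tested miRNAs (grey) and the 3 tested family members (red). miR-34c (0.825) and miR-449a (0.703) lie far above the median of 0.179, and miR-34a (0.233) lies within the main cloud.

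Counting error was a small part of this spread. The squared deviation of the reads from the diet mean, divided by what counting alone would give (1), averaged 87.8 for miR-34c, 25.2 for miR-449a and 14.6 for miR-34a. For the rare members the ratio was 8.05 (miR-34b), 4.14 (miR-449b) and 7.39 (miR-449c), so that they too varied between calves by more than counting alone would give.

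The distribution of miR-449a was not even. The lowest 10 calves, 5 HI and 5 MOD, lay between 0.665 and 2.14 CPM (6 to 19 reads), and the other 20, 10 HI and 10 MOD, between 4.23 and 19.8 CPM (at least 31 reads). No calf lay between 2.14 and 4.23 CPM. Of the 10, 2 were among the 9 libraries with the highest label numbers and 8 among the 21. miR-34c showed no such gap in the middle of its range.

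The loci also differed in which calves were high. MOD calf 13 had the highest level of miR-34b (28 reads), miR-34c (333 reads), miR-449a (19.8 CPM), miR-449b (18 reads) and miR-449c (26 reads). Its miR-34a level, 22.1 CPM from 173 reads, was that of the middle of its diet, so that miR-34a made up 23.6% of the family's reads there, against 89.4% in HI calf 9. The same calf ranked 1 of 30 in the summed miR-200 family, but 20 in miR-205 of stratified epithelium. In the other summed marker lists it ranked 4 (red blood cell and striated muscle), 10 (endothelial), 11 (neural), 12 (endocrine and stromal) and 20 (white blood cell). HI calf 7 had the highest miR-34a (506 reads) and the highest HI level of miR-449a (109 reads). HI calf 14 combined a high sum of miR-34b and miR-34c (22.5 CPM) with the lowest miR-449a of all (0.665 CPM, 6 reads) and no read of miR-449b or miR-449c.

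**Figure D4:**
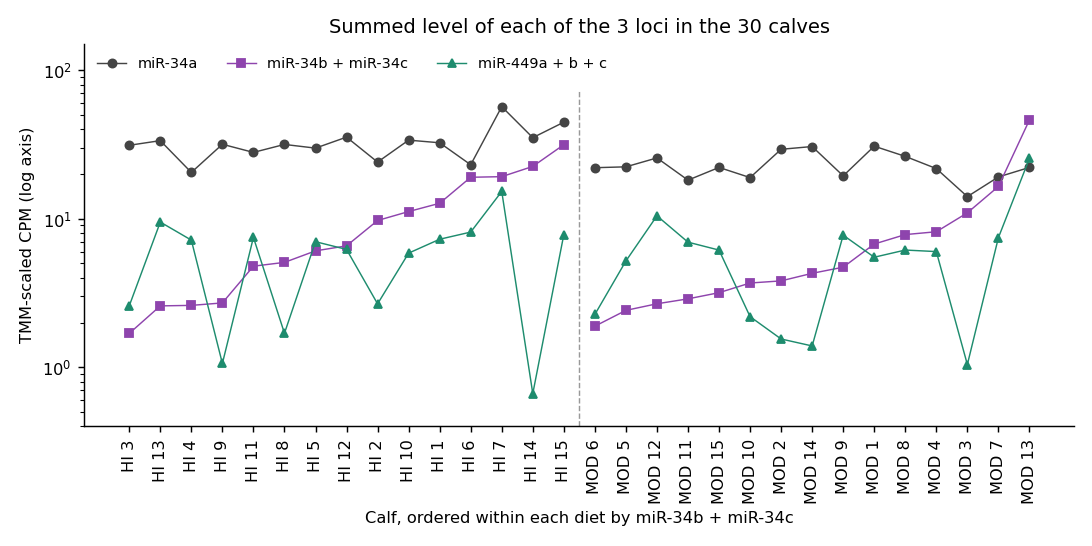
Summed TMM-scaled CPM (y axis, log) of each of the 3 loci in each calf (x axis), ordered within HI (left) and MOD (right) by miR-34b + miR-34c. miR-34a stays between 14.1 and 56.8 CPM, while the other loci vary more widely and are not always high in the same calves. HI calf 14 is high in miR-34b + miR-34c and lowest in miR-449, whereas MOD calf 13 is highest in both.

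The division of reads between the members of a locus was described next. miR-34b made up 8.74% of the 2450 reads on miR-34b and miR-34c, with a mean share of 9.30 ± 4.18% in HI and 8.95 ± 6.01% in MOD calves (SD, n = 15 each) and a range of 0 to 19.4% over the calves. The squared deviation of the calves' shares from one common share was 1.59 times what counting alone would give. miR-449a made up 84.4% of the 1606 reads on the CDC20B locus, miR-449b 8.72% and miR-449c 6.85%, and the ratios for these shares were 1.65, 1.02 and 1.68. The miR-449a share was 85.5 ± 8.53% in HI and 85.9 ± 5.94% in MOD calves. Over the calves these shares ran from 72.0% to all of the reads (miR-449a), from 0 to 24.0% (miR-449b) and from 0 to 16.7% (miR-449c). Apart from that of miR-449b, the ratios were above what counting alone would give, and the shares of single calves rest on few reads. Every member's reads came out as whole numbers, so that no read had been divided between near-identical miRNAs. Whole numbers do not show whether a read was counted in full for more than 1 member. Rows with equal levels occur elsewhere, such as miR-124a and miR-124b of the neural list, both at a mean of 0.968 CPM in HI.

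Correlations over the calves, each member centred on its diet mean, were computed for the 15 pairs of the 6 members with more than 3 reads in all. Of these, 3 pairs were planned, and 12 pairs with a rare member were added after the data were seen. Two-sided permutation tests with 1e+05 resamples were used, whose smallest p is 1e-05, and p-values were adjusted over the 15 pairs by the Benjamini-Hochberg method. miR-34b and miR-34c, from one transcript, rose and fell together, with r = 0.83 and Spearman's rho = 0.77 over 30 calves (permutation p = 1e-05 for both, adjusted p = 3.75e-05 and 0.00015). Without the 2 calves farthest from the median of miR-34b, r was 0.72 (adjusted permutation p = 0.0005). It was 0.82 within HI and 0.85 within MOD calves (adjusted permutation p = 0.00465 and 0.0017), and 0.77 without MOD calf 13.

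In the miR-449 group, miR-449b and miR-449c had r = 0.78 and rho = 0.74 over 30 calves (permutation p = 1e-05 and 3e-05, adjusted p = 3.75e-05 and 0.000225). Without the 2 calves farthest from the median of miR-449b, r was 0.58 (adjusted permutation p = 0.00428), and without MOD calf 13 it was 0.67. Over all 30 calves miR-449a had r = 0.79 and rho = 0.70 with miR-449b (adjusted permutation p = 3.75e-05 and 0.0003), and r = 0.70 and rho = 0.60 with miR-449c (adjusted permutation p = 3.75e-05 and 0.00285). Without the 2 calves farthest from the median of miR-449a these r values were 0.79 and 0.69, and without MOD calf 13 they were 0.73 and 0.62 (adjusted permutation p = 0.000225 and 0.00251). Within HI calves they were 0.60 and 0.59, and neither passed (adjusted permutation p = 0.0595 for both). Within MOD calves they were 0.95 and 0.80 (adjusted permutation p = 0.00015 and 0.001575). The difference between the diets was not tested. These values span the gap in miR-449a, so the pairs were also read within each of its 2 ranges, which narrows the spread of miR-449a. Among the 20 calves of the higher range miR-449a had r = 0.81 and rho = 0.55 with miR-449b (adjusted permutation p = 0.00233 and 0.1003). With miR-449c it had r = 0.61 and rho = 0.07 there (adjusted permutation p = 0.0751 and 0.822). Among the 10 calves of the lower range, where few reads of miR-449b and miR-449c were counted, the r values were 0.59 and 0.75 (adjusted permutation p = 0.303 and 0.107). The pairing of miR-449b with miR-449c was also stronger in the higher range (r = 0.72) than in the lower one (r = 0.18), a difference that was not tested.

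Of the 11 pairs between loci, 6 passed at an adjusted p below 0.05 by Pearson's r over all calves and 0 by rank (permutation tests). miR-34a and miR-34c had r = 0.13 and rho = 0.12 (permutation p = 0.488 and 0.522, adjusted p = 0.522 and 0.652). miR-34a and miR-449a had r = 0.12 and rho = 0.02 over all calves (adjusted permutation p = 0.537 and 0.926), r = 0.15 and rho = -0.08 within the higher miR-449a range (adjusted permutation p = 0.456 and 0.822) and r = -0.07 within the lower one. miR-34c and miR-449a had r = 0.30 and rho = 0.17 over all calves (adjusted permutation p = 0.152 and 0.571). Read by range, they had r = 0.48 and rho = 0.19 in the higher range (adjusted permutation p = 0.0758 and 0.577) and r = -0.56 in the lower one (adjusted permutation p = 0.303). miR-34a and miR-34b reached r = 0.41 (adjusted permutation p = 0.0456), but not by rank (rho = 0.35, adjusted permutation p = 0.187). For this pair r was 0.67 within HI (adjusted permutation p = 0.0247) and 0.04 within MOD calves, a difference that was not tested. It was 0.49 without MOD calf 13 (adjusted permutation p = 0.0281), 0.29 without HI calf 7 and 0.31 without the 2 calves farthest from the median of miR-34a (adjusted permutation p = 0.285).

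Over all 30 calves the strongest relation between loci was that of miR-34b with miR-449c, with r = 0.65 (adjusted permutation p = 0.00312) and rho = 0.31 (adjusted permutation p = 0.234). MOD calf 13 raised it, and without that calf r was 0.46 (adjusted permutation p = 0.0615). Within HI calves, which do not include it, r was 0.58 (adjusted permutation p = 0.0595). Without the 2 calves farthest from the median of miR-34b, r was 0.39 (adjusted permutation p = 0.186). The pairs of miR-34b with miR-449a, miR-34b with miR-449b, miR-34c with miR-449b and miR-34c with miR-449c had r = 0.41, 0.43, 0.42 and 0.48. Without MOD calf 13 their r values were 0.24, 0.21, 0.21 and 0.21, and none passed. Within the 10 calves of the lower miR-449a range, 2 pairs had negative rank correlations that passed, miR-34a with miR-449b (rho = -0.88) and miR-34b with miR-449a (rho = -0.81), both with an adjusted permutation p of 0.0394. Pearson's r did not pass for either (adjusted permutation p = 0.104), and few reads lie behind these values.

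**Figure D5:**
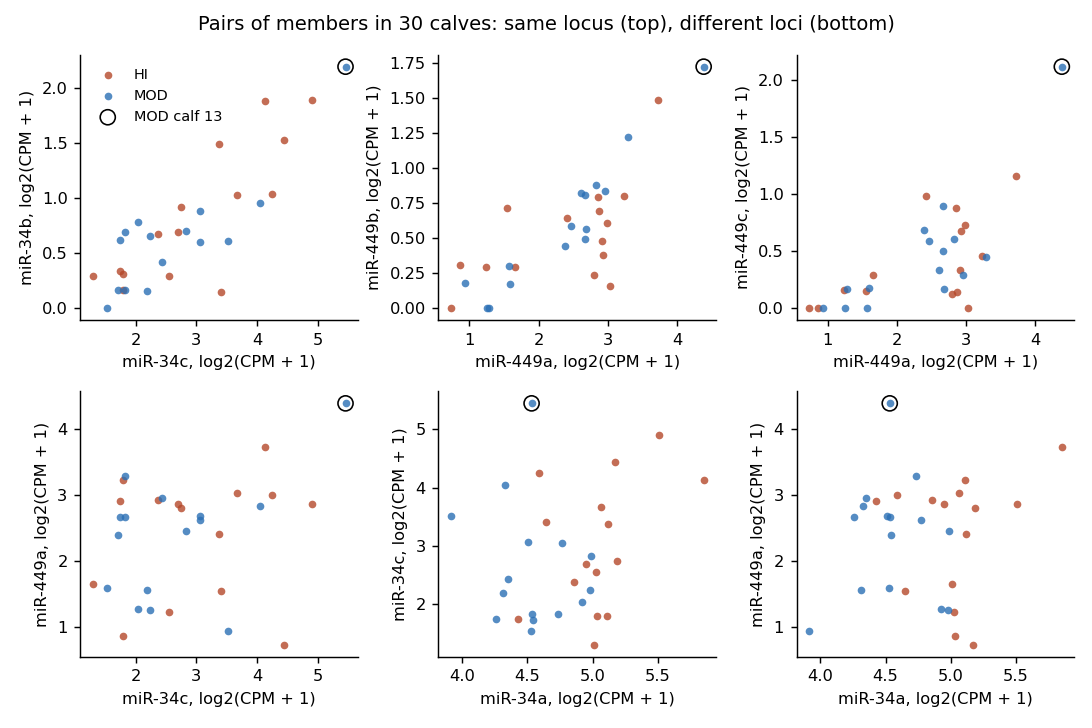
Levels of pairs of members, log2(CPM + 1) on both axes, in the 30 calves (HI red, MOD blue, MOD calf 13 circled), with pairs from one locus above and pairs from different loci below. miR-34b follows miR-34c, miR-449a leaves a gap between 2.14 and 4.23 CPM, and the pairs of the lower panels, with r from 0.12 to 0.30, are more scattered.

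The tested miRNAs that most resembled each member over the 30 calves differed between the loci, as measured by Pearson's r after centring on diet. For miR-34a they were miR-30c (r = 0.59), miR-30f (0.57), miR-20a (0.56), miR-17-5p (0.55) and miR-30b-5p (0.54). For miR-34c they were miR-147 (0.65), miR-3432a (0.56), miR-363 (0.52), miR-362-5p (0.47) and miR-500 (0.47). For miR-449a the values were lower, with miR-574 (0.48), miR-452 (0.43), miR-411b (0.39), miR-141 (0.37) and miR-2465 (0.34). These values are the extremes over all other tested miRNAs and are a description. No miRNA was on more than 1 of these lists.

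The summed levels of 9 marker lists were set against miR-34a, miR-34c and miR-449a in the same way. Of the 27 relations none passed, and the lowest adjusted permutation p was 0.388 for Pearson's r and 0.368 for Spearman's rho. The multiciliated miRNAs are the members themselves, so no independent list for those cells was at hand.

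Other miRNAs linked to p53 formed a list of 11 rows, all tested. They were miR-192, miR-194 and miR-215, which are induced by p53 and target its inhibitor MDM2, miR-143, miR-145, miR-16a and miR-16b, whose maturation p53 promotes, miR-15a, miR-107, and miR-200c with miR-141. miR-605 was not analysed here. Between the diets 0 of 11 were called (limma, FDR below 0.1), where 3.58% of all tested miRNAs were, so that the count says nothing particular of the list. Of the 11, 3 had a log2 difference above 0, and the median was -0.04, against 0.02 over all tested miRNAs. The log2 differences ran from -0.22 (miR-215) to 0.12 (miR-143). The HI and MOD means of miR-192 were 6347 ± 797 and 6319 ± 431 CPM, and those of miR-194 were 101.8 ± 13.04 and 105.3 ± 10.7 CPM (SD, n = 15 each). miR-143 and miR-145 are also on the stromal list, and miR-200c and miR-141 on the miR-200 list.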

How the data were processed

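Small RNA of 30 anterior pituitaries was analysed. The authors trimmed adapters with Cutadapt, kept reads of 15 to 28 bp, removed other short RNAs, and counted known bovine miRNAs with miRDeep2 on ARS-UCD1.2. Per the labels' processing notes, FastQC 0.11.8, cutadapt 2.6, R 3.4 and edgeR 3.5 were named. The authors deposited a normalized signal, CPM divided by TMM factors, in place of raw counts. The worth of 1 read in each library, taken from its lowest values, turned them back into reads. At least 95.0% of the low values checked in a library were within 0.1 of a whole read. TMM factors computed anew from the reads were within 6.36e-06 of those implied by the sums of the deposited values.

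Differences were fitted with limma 3.58.1 (R 4.3.3; lmFit, eBayes with trend) to log2(CPM + 1), after edgeR's filterByExpr by diet had removed rare miRNAs, with Benjamini-Hochberg adjustment and FDR < 0.1. edgeR 4.0.16's quasi-likelihood test on the rounded reads called 21 miRNAs between the diets, and DESeq2 1.42.0 was run beside it. Read recovery, the fits and the permutation tests were tested on simulated data. The detection limits cover counting error only. The SDs and standard errors come from the values of separate calves, so they hold the spread between calves as well as counting error. Groups came from the labels, and every calf was a separate animal.

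The members, the gene lists and the set of 9 libraries were chosen with earlier results of these data known. Named miRNAs are the members, those of the p53 and marker lists where discussed, miR-486, and the 5 tested miRNAs most like each member with a median of at least 10 reads. A rule on shared seeds was not applied, since no mature sequences were used here.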

Additional observations from a re-analysis of the deposited data

How the results depend on the processing

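The count of miRNAs called between the diets was 15. DESeq2's Wald test gave 24, and the count was 29 with upper quartile factors and 9 with miR-486 as a covariate, and leaving out 1 calf gave 14 to 21. The split of higher and lower calls moved with the scaling, from 8 and 7 to 16 and 2 with total reads and to 3 and 26 with upper quartile factors, while the median log2 difference of all miRNAs moved from 0.02 to 0.07 and -0.07. No paired analysis was possible because HI and MOD calves have no numbers in common in their labels.

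The label set difference of miR-449a turned to -0.016 with edgeR's quasi-likelihood test. Within MOD calves r turned to -0.19 for miR-34a with miR-34c, -0.081 with miR-449b and -0.0094 with miR-449c. Without the 2 calves farthest from its median, miR-34a had r = -0.19 with miR-449a, -0.21 with miR-449b and -0.075 with miR-449c. Leaving out MOD calf 13 and reading pairs within the 2 ranges of miR-449a were chosen after seeing the data. Within the lower range of 10 calves, where counts are few, r was below 0 for miR-34a with miR-34c (-0.30), miR-449a (-0.074) and miR-449b (-0.67), for miR-34b with miR-449a (-0.71), miR-449b (-0.77) and miR-449c (-0.42), and for miR-34c with miR-449a (-0.56), miR-449b (-0.10) and miR-449c (-0.56). None of these passed after adjustment of Pearson's p, 2 passed by rank (miR-34a with miR-449b and miR-34b with miR-449a, adjusted permutation p = 0.0394), and the cause was not tested. Most values of miR-34b, miR-449b, miR-449c and miR-449d rest on few reads.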
